A study of Saccharomyces cerevisiae with 60 samples.

Results

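Transcript ratios were examined for 30 genes of the tricarboxylic acid (TCA) cycle, the glyoxylate shunt and gluconeogenesis in Saccharomyces cerevisiae. The genes were taken by name from the symbols that the array platform gives its rows, and all 30 were among the 5524 genes measured. Total RNA of 9 strains (S288C, YPS163, M5, M8, M13, M14, M22, M32 and M34) in exponential growth, in medium with copper sulfate or in rich medium, was hybridised on arrays of 2 colours. Each strain had 3 arrays in each medium, in which its RNA was set against combined RNA of all 9 strains, giving 54 strain arrays. On 6 further arrays, called pool arrays here, the pool from copper sulfate medium was set against the pool from rich medium. The labels used here name no copper concentration, no genotype or origin of a strain, and no separate cultures for replicates, so a p-value here reflects the spread of these arrays alone, which may be technical.

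The TCA cycle oxidises acetyl-CoA in the mitochondrial matrix and supplies precursors such as 2-oxoglutarate for amino acid synthesis. Pyruvate dehydrogenase feeds it with acetyl-CoA, and pyruvate carboxylase refills it with oxaloacetate. The glyoxylate shunt skips the decarboxylation steps of the cycle, so that carbon from acetate or ethanol can be turned into sugar through phosphoenolpyruvate carboxykinase and fructose-1,6-bisphosphatase. In yeast growing on glucose the shunt and gluconeogenic genes are strongly repressed, the cycle genes less so, and the Hap2/3/4/5 complex activates many respiratory genes.

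All values below are log2 ratios, either of a strain over the pool of the same medium or of the copper pool over the rich medium pool, after each array was centred on its median. The strain arrays were read as channel 1 over channel 2, because the mean ratio over strains to their own pool then lay closer to 1 (median absolute log2 of 0.16 against 0.37 in copper, and 0.12 against 0.39 in rich medium). The pool arrays were read the other way, which is likely but not stated in the labels. Its basis is CUP1-1, the copper-induced metallothionein gene, which then read from 3.45 to 8.92 on the 6 arrays. With the sign turned, every pool value and every strain contrast below would change its sign, and the F-tests would not change. Neighbouring spots moved together on these arrays: the first principal component held 34.1% of the variance and had a correlation of 0.91 between adjacent rows. Of 352 pairs of arrays with 1 channel order and medium but different strains, 48 correlated below -0.3, the lowest at -0.60. These pairs alone do not settle the direction of single arrays. After subtraction of a running median over neighbouring spots, called position-corrected below, none of the pairs was under -0.3 and the lowest was -0.29. The median SD between the 3 arrays of a group was 0.48 for the 30 genes and 0.50 for all genes, and 0.37 and 0.33 after position correction.

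In the pool arrays, 1 of the 30 genes passed the test for a copper response, and it was lower in copper: CIT3, a mitochondrial citrate and methylcitrate synthase, at -0.76 ± 0.17 (SE, 6 arrays). No member was higher by limma (Benjamini-Hochberg adjusted p under 0.05), while 9 had an unadjusted p under 0.05, as did 14.6% of all genes. Of all genes, 1.18% were called higher and 0.235% lower. The median over the 30 genes was 0.04, beside -0.04 over all genes. Of the 30, 18 lay above 0, beside 44.1% of all genes.

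CIT3 read -1.45, 0.32, -1.90, 0.52, -0.25 and 0.04 on pool arrays 1 to 6. Both low arrays, 1 and 3, were those with the copper pool in channel 1, and the other 4 spanned 0, from -0.25 to 0.52. The fitted channel effect of CIT3 was -0.92, larger than its copper effect. The adjusted p of CIT3 by limma was 0.0445. It became 0.255 after position correction, with an effect of -0.50, and 0.982 without a channel term. Leaving out array 1, 2, 3, 5 or 6 gave 0.188, 0.0690, 0.635, 0.126 and 0.0814, and only the fit without array 4 still passed, at 0.0254. Over all genes, 949 passed a test of the channel effect in these arrays. The median size of that effect was 0.28, beside 0.18 for the copper effect.

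The other mitochondrial cycle genes lay mostly above 0 in copper, without passing the test. Of the 11 genes of this group, 9 were above 0, the group's median was 0.31, and 6 had an unadjusted p under 0.05, CIT3 among them. IDH2, a subunit of the NAD-dependent isocitrate dehydrogenase, read 0.95, 0.08, 1.20, 0.61, 0.39 and 0.11. All 6 IDH2 arrays were above 0, and arrays 1 and 3 were again the farthest from it. Its effect was 0.69 ± 0.16 with an adjusted p of 0.0543 by limma.

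CIT1, the main mitochondrial citrate synthase, read 0.75, -0.16, 1.73, 1.04, -0.13 and -0.12, and 3 of its 6 arrays lay just below 0. Its effect was 0.70 ± 0.21 (limma, adjusted p 0.147). MDH1, the mitochondrial malate dehydrogenase, had an effect of 0.67 ± 0.20 (limma, adjusted p 0.148) and lay above 0 on 5 arrays. IDH1, the partner subunit of IDH2, had 0.49, with arrays from -0.59 to 1.23. Aconitase (ACO1) stood at 0.36 and the 2-oxoglutarate dehydrogenase subunit KGD1 at 0.31. Fumarase (FUM1) followed at 0.23 and LSC2, a subunit of succinyl-CoA ligase, at 0.19. KGD2, the succinyltransferase subunit of 2-oxoglutarate dehydrogenase, was near 0 at 0.06, and LSC1, the partner of LSC2, was at -0.16. As for CIT3, the fitted channel effect was larger in size than the copper effect for IDH1 (0.62), ACO1 (0.39), LSC2 (0.25) and KGD2 (-0.16). It was smaller for IDH2 (0.39), CIT1 (0.54), MDH1 (0.20), KGD1 (0.15), FUM1 (-0.05) and LSC1 (-0.10).

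After position correction no member was called by limma, 11 had an unadjusted p under 0.05, and 10 of the 11 cycle genes lay above 0 with a median of 0.26. IDH2 then had 0.52 (adjusted p 0.0613) and MDH1 had 0.68 (adjusted p 0.0609). Both lay above 0 on all 6 corrected arrays, as did FUM1 at 0.33. On this scale IDH2 passed without array 4 (0.0493), MDH1 without array 1 (0.0240) and CIT3 without array 4 (0.0346). Array 3 held the highest MDH1 value, 1.54 against at most 0.52 on the others. Without array 3 the corrected effect was 0.41 for MDH1, 0.30 for CIT1 (0.54 with it) and 0.46 for IDH2. On the centred scale the adjusted p without array 3 was 0.654 for IDH2 and 0.952 for MDH1 and CIT1. When arrays were not centred, the median over all genes was 0.08 in place of -0.04, and CIT1, IDH2, MDH1 and PYC1 passed with adjusted p between 0.0304 and 0.0421. All 4 lay above 0 in each of the 13 fits without position correction, the main fit among them, and in each of the 7 fits with it.

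**Figure D1:**
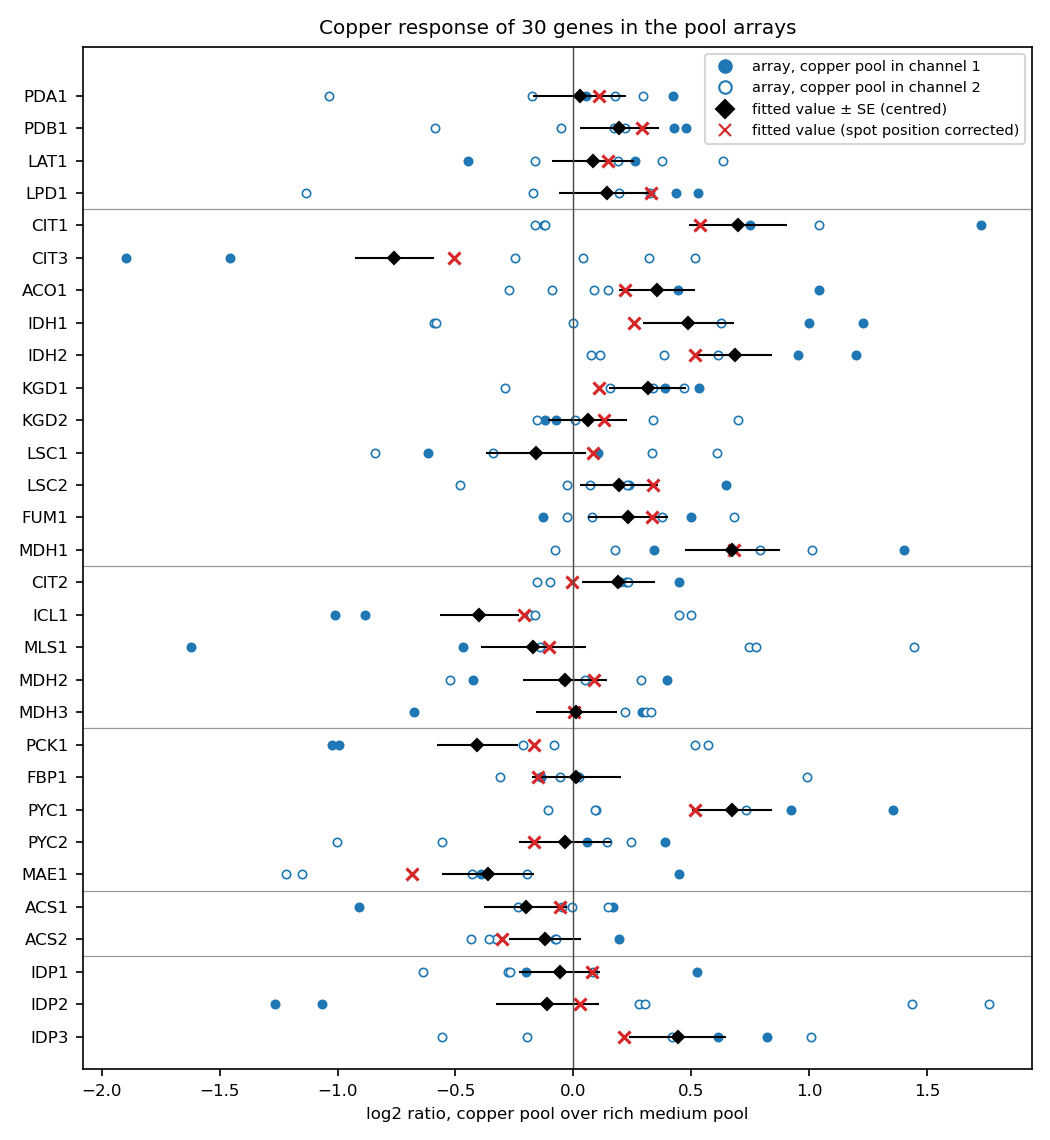
Copper response of the 30 genes in the pool arrays, as the log2 ratio of the copper pool over the rich medium pool. Circles are the 6 arrays (filled where the copper pool was in channel 1), diamonds with bars the fitted value ± SE, and crosses the fitted value after position correction. The filled circles of CIT3, ICL1, PCK1 and IDP2 lie left of the open ones, and all circles of IDH2 lie right of 0.

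Among genes that feed or refill the cycle, PYC1 stood apart from its relative PYC2. Both encode pyruvate carboxylase, which makes oxaloacetate from pyruvate. PYC1 read 0.92, -0.11, 1.36, 0.73, 0.10 and 0.09, with an effect of 0.67 ± 0.17 (limma, adjusted p 0.0809). PYC2 read 0.39, -0.56, 0.06, -1.004, 0.24 and 0.14, with an effect of -0.04. The difference between the paralogs was not tested, and whether their spots share hybridisation was not tested either, which holds also for the CIT, MDH and IDP genes. The 4 pyruvate dehydrogenase genes, PDA1, PDB1, LAT1 and LPD1, ran from 0.03 to 0.20, all above 0 and none with an unadjusted p under 0.05.

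The glyoxylate and gluconeogenic genes showed no called change in copper. ICL1, isocitrate lyase, read -0.88, 0.50, -1.01, 0.45, -0.18 and -0.16 and had an effect of -0.40. PCK1, phosphoenolpyruvate carboxykinase, read -1.03, 0.52, -0.996, -0.08, -0.21 and 0.57 and had an effect of -0.41. As for CIT3, the 2 lowest arrays of both were arrays 1 and 3, and after position correction the effects were -0.21 and -0.17.

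Malate synthase (MLS1) had -0.17 with arrays from -1.62 to 1.45, the widest range of the 30 members. FBP1, fructose-1,6-bisphosphatase, was at 0.01, CIT2, the peroxisomal citrate synthase, at 0.19, the cytosolic malate dehydrogenase MDH2 at -0.04 and the peroxisomal MDH3 at 0.01. Of the NADP-dependent isocitrate dehydrogenases, mitochondrial IDP1 had -0.06, cytosolic IDP2 had -0.11 and peroxisomal IDP3 had 0.44. IDP2 spanned nearly as much as MLS1, from -1.27 to 1.76. The fitted values weigh both channel orders equally, and can differ in sign from the plain mean of the 6 arrays. That mean was 0.24 for IDP2, 0.12 for MLS1 and -0.04 for PDA1, each opposite in sign to the fitted value. The fitted channel effect was -1.06 for IDP2 and -0.88 for MLS1.

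MAE1, the mitochondrial malic enzyme that converts malate to pyruvate, read 0.45, -1.15, -0.39, -1.22, -0.43 and -0.20 and had an effect of -0.36. After position correction it was below 0 on all 6 arrays with an effect of -0.69 (limma, adjusted p 0.126). ACS2, the acetyl-CoA synthetase used during growth on glucose, was also below 0 on all 6 corrected arrays, at -0.30 (adjusted p 0.281). Its paralog ACS1, which is repressed by glucose, had -0.06 after correction and -0.20 before it.

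Other genes of the same pathways gave 1 call in the pools. ALD4, the mitochondrial aldehyde dehydrogenase that makes acetate, rose by 1.04 ± 0.19 (limma, adjusted p 0.0133). It read 1.03, 0.64, 1.37, 1.17, 1.46 and 0.28, above 0 on all arrays, and kept 0.92 after position correction. It was the only call among 15 other glyoxylate, acetate and gluconeogenesis genes, whose lowest was YAT2, a carnitine acetyltransferase, at -0.33. None of 6 other TCA cycle genes was called, and 4 had an unadjusted p under 0.05. The highest of these was KGD4, a component of 2-oxoglutarate dehydrogenase, at 0.77 (adjusted p 0.0570), and the lowest was SDH3, a membrane anchor subunit of succinate dehydrogenase, at -0.62.

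Regulators and transporters gave no call in the pools. None of 13 regulators was called or had an unadjusted p under 0.05, from ADR1, an activator of ethanol utilisation genes, at 0.40 down to CAT8, an activator of gluconeogenic genes, at -0.18. Among 7 mitochondrial carriers, none called and 1 with an unadjusted p under 0.05, the citrate transporter CTP1 was lowest at -0.56 and the oxaloacetate carrier OAC1 highest at 0.25. None of 8 other pyruvate entry genes was called or had an unadjusted p under 0.05, and they ran from -0.30 for MPC2 to 0.37 for MPC3, both subunits of the mitochondrial pyruvate carrier.

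Of 16 stress and post-diauxic genes, 10 were called higher in copper in the same arrays (limma, adjusted p under 0.05), beside 1.18% of all genes. The median of the 16 was 1.03. The list was chosen with earlier results of these data known, so its count is no independent result. HSP12, a membrane heat shock gene, stood at 3.15, ALD3, a cytosolic aldehyde dehydrogenase gene, at 2.11, and HXK1, a hexokinase gene that is repressed by glucose, at 2.05. The lowest was GRE1 at -0.63. Their part in the cycle genes' values was not tested.

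Between strains, no member passed the F-test on the centred values in either medium. In copper limma called 0 of 30 (3 had an unadjusted p under 0.05, as did 5.90% of all genes), beside 1.45% of all genes called. In rich medium it called 0 of 30 (5 had an unadjusted p under 0.05, as did 11.9% of all genes), beside 1.63%. After position correction 2 were called in copper, MAE1 and IDH2, beside 3.67% of all genes, and 1 in rich medium, IDH1, beside 2.66%. The median range over the 9 strains was 0.85 for the members and 0.73 for all genes in copper, and 1.15 and 0.91 in rich medium. Corrected, these medians were 0.67 and 0.53 in copper and 0.68 and 0.50 in rich medium.

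**Figure D2:**
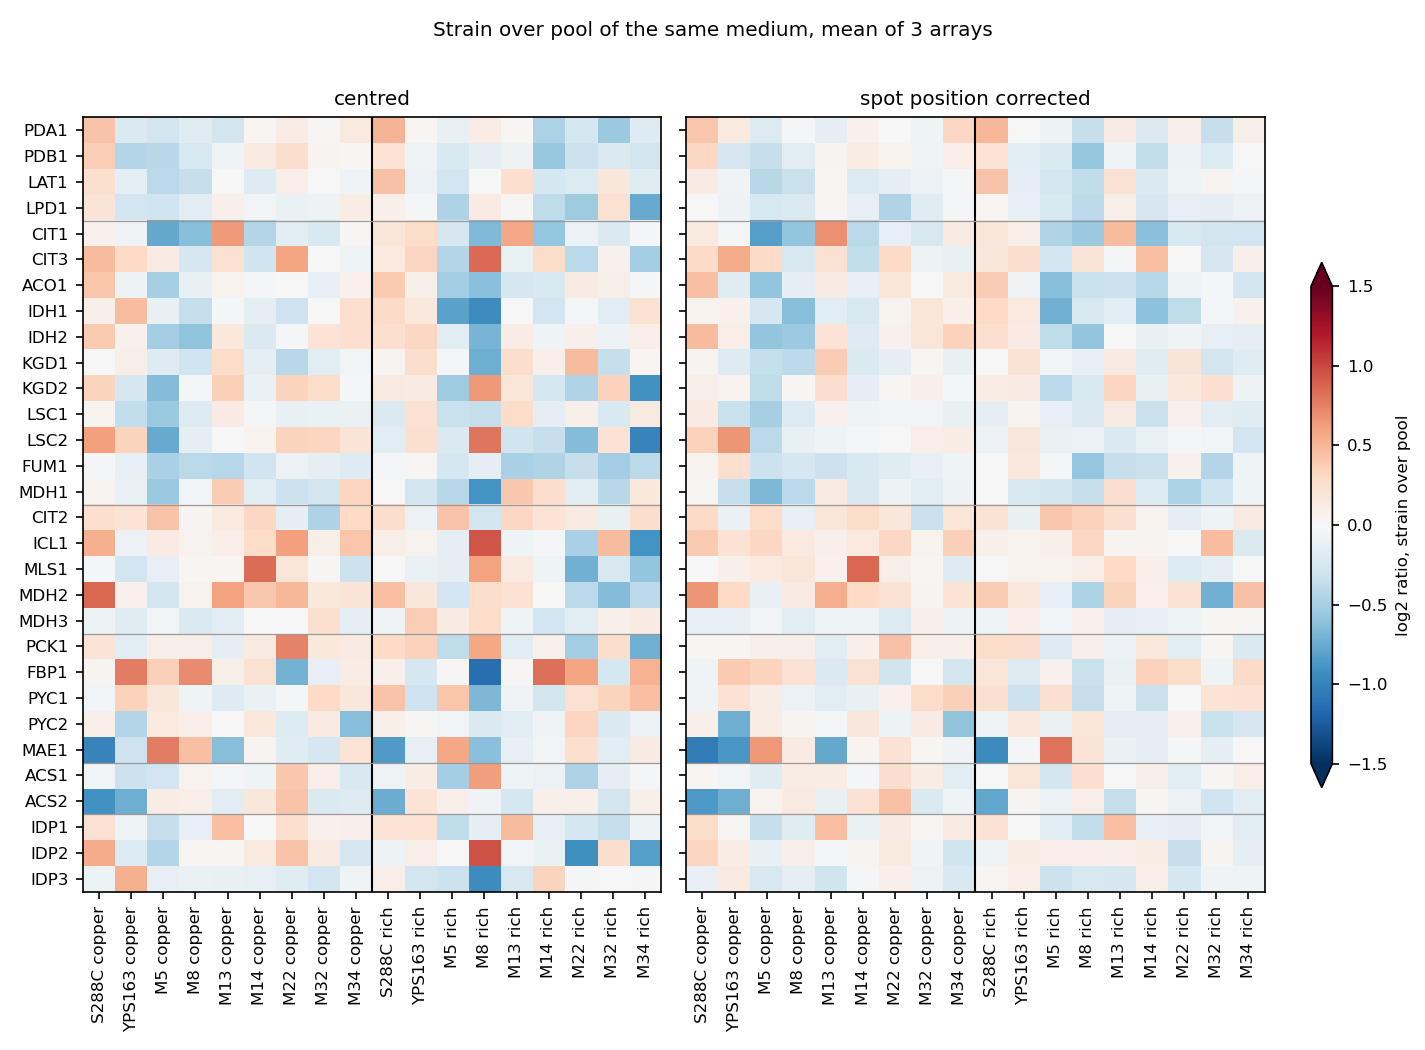
Mean log2 ratio of each strain over the pool of its medium for the 30 genes (3 arrays each), centred on the left and position-corrected on the right. Colour gives the log2 ratio, blue below 0 and red above 0, and horizontal lines separate the gene groups. MAE1 and ACS2 are blue in S288C in both media on both sides, and IDP2, ICL1, LSC2 and FBP1 of M8 in rich medium are strongly coloured on the left and pale on the right.

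MAE1 had the largest range of any member in copper, 1.77 centred and 1.70 corrected, between M5 and S288C. In copper the S288C arrays read -0.83, -1.10 and -1.09, whereas the 24 arrays of the other strains ran from -1.33 to 0.90 with a median of 0.09. The M5 arrays read 0.90, 0.76 and 0.65. The S288C and M5 arrays did not overlap each other, but M13, at -1.09, -1.33 and 0.48, reached as low as S288C. The F-test for MAE1 in copper had an adjusted p of 0.336 on centred values and 0.00127 after position correction (limma). The corrected result passed in 31 of 32 settings, and without replicate 1 of every strain its adjusted p was 0.0641.

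Set against the mean of the other 8 strains, MAE1 in S288C had a contrast of -1.02 in copper, with an adjusted p of 0.201 (limma), where 0.308% of all genes were called lower in S288C. After position correction it fell by 0.97 ± 0.24 (adjusted p 0.0129), beside 0.688% of all genes called lower. The corrected arrays were -0.72, -1.71 and -0.72. Replicate 2 was the lowest of them, and without it the adjusted p was 0.458. Without replicate 1 of S288C it was 0.0699, and without replicate 2 or 3 of every strain 0.227 and 0.0631.

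In rich medium MAE1 read -0.81, -0.54 and -1.18 in S288C, with other strains between -1.09 and 1.45. After position correction S288C read -0.59, -1.46 and -0.84, below all 24 other arrays, whose lowest was -0.49. The corrected contrast was -1.02 ± 0.24 (limma, adjusted p 0.00794), beside 0.217% of all genes called lower in S288C. The centred contrast was -0.83 (adjusted p 0.759, beside 0.127%). Without S288C replicate 1 or 2 the corrected p was 0.0529 and 0.306, and without replicate 1 or 3 of every strain 0.0901 and 0.128. M5 was again the highest strain, at a corrected mean of 0.82 ± 1.08 (SD, n = 3), with arrays of 1.22, -0.40 and 1.64. The last of these, M5 replicate 3, is labelled with a channel order unlike that of replicate 3 of the other strains, and its sign rests on that label. As labelled, every strain array, this one among them, correlated at 0.32 or more with its strain's mean in the other medium after correction. Once replicate 1 of every strain was left out, M5 replicate 3 was the only strain array in channel 2. The channel term then rested on it, and M5 in rich medium on 1 other array. Without M5 replicate 3 the corrected F-test for MAE1 had a range of 1.33 and an adjusted p of 0.249 (limma). The second M5 array lay among the other strains, and without it the F-test for MAE1 in rich medium had an adjusted p of 0.000939, beside 0.0703 with all arrays (limma).

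ACS2 also had its lowest mean in S288C in both media. In copper it read -0.80, -1.34 and -0.59 in S288C, while the other 24 arrays ran from -1.10 to 0.60 with a median of -0.03. M22 was the highest strain at 0.43 ± 0.27 and YPS163 the second lowest at -0.73 ± 0.46 (SD, n = 3). The groups of S288C and YPS163 overlapped. Its F-test in copper had an adjusted p of 0.134, and 0.0578 after correction (limma). It passed on the corrected scale when M34 replicate 1 or 2 or YPS163 replicate 2 was left out, with adjusted p from 0.0267 to 0.0375.

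The contrast of ACS2 in S288C in copper was -0.85 ± 0.24 (limma, adjusted p 0.0705) and -0.82 ± 0.23 after correction (adjusted p 0.0462). The corrected call was lost without S288C replicate 1 (0.156), replicate 3 (0.0512) and replicate 2, where the contrast was -0.59. It was also lost, at 0.0503 to 0.0587, in 14 fits without 1 array of another strain: replicate 2 of each of the 8 strains, and replicate 3 of M5, M8, M13, M14, M32 and M34. In rich medium ACS2 in S288C read -0.63, -0.78 and -0.81, all below 0, and the contrast was -0.73 (adjusted p 0.291).

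The IDH2 arrays of S288C lay above those of M5 and M8 in copper, strains that were named from these same values. How often strains named in this way do not overlap was not counted over all genes, which holds also for MAE1 and IDH1. In copper IDH2 read 0.10, 0.71 and 0.39 in S288C, -0.29, -0.75 and -0.53 in M5, and -0.78, -0.54 and -0.49 in M8. None of the S288C arrays overlapped those of M5 or M8, which overlapped each other. The range over strains was 1.00 (limma F-test, adjusted p 0.515) and 1.06 after correction (adjusted p 0.00141). The corrected F-test lost its call without replicate 1 of every strain (0.190) and without replicate 2 of every strain (0.131).

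M5 set against the other strains gave -0.67 ± 0.15 for IDH2 in copper after correction (limma, adjusted p 0.0375), beside 0.109% of all genes called lower in M5. On centred values it was -0.55 and did not pass, beside 0.0362%. Without M5 replicate 1, 2 or 3 the corrected p was 0.304, 0.164 and 0.0803. Leaving out M34 replicate 1 or 2, M32, M13 or M8 replicate 2, or M14 replicate 3 gave 0.0504 to 0.0525. In S288C the corrected contrast of IDH2 was 0.52 (adjusted p 0.0611), which passed without S288C replicate 1 (0.0485) or YPS163 replicate 3 (0.0285). M8 had a corrected contrast of -0.61 that did not pass (adjusted p 0.110). In rich medium the IDH2 arrays of M8 read -0.65, -0.997 and -0.46 and those of S288C 0.29, 0.25 and 0.21. The 2 strains did not overlap there either, yet the corrected F-test had an adjusted p of 0.184 (limma).

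IDH1, the partner subunit, was called in rich medium after correction. It read 0.18, 0.66 and 0.02 in S288C and -0.21, -1.06 and -1.14 in M5, which did not overlap. M8 was the lowest strain on centred values, at -0.94 ± 0.30 (SD, n = 3), and M5 after correction. YPS163 spanned a wider range, at 0.16 ± 1.46 (SD, n = 3). The range over strains was 1.22 (limma F-test, adjusted p 0.317) and 1.15 after correction (adjusted p 0.0229). Leaving out M5 replicate 1 or 2, S288C replicate 1 or 3, or M14 replicate 2 gave adjusted p from 0.0546 to 0.110, and leaving out a replicate number in every strain gave 0.0792 to 0.545. With the replicate block in place of the channel effect it was 0.0537. Without M5 replicate 3, whose channel order differs from that of replicate 3 of every other strain in rich medium, it was 0.00782. In the fit without replicate 1 of every strain, M5 in rich medium rested on 1 array, as for MAE1. In copper the corrected IDH1 range was 0.82 with M8 lowest at -0.64 ± 0.29, and the F-test had an adjusted p of 0.422.

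**Figure D3:**
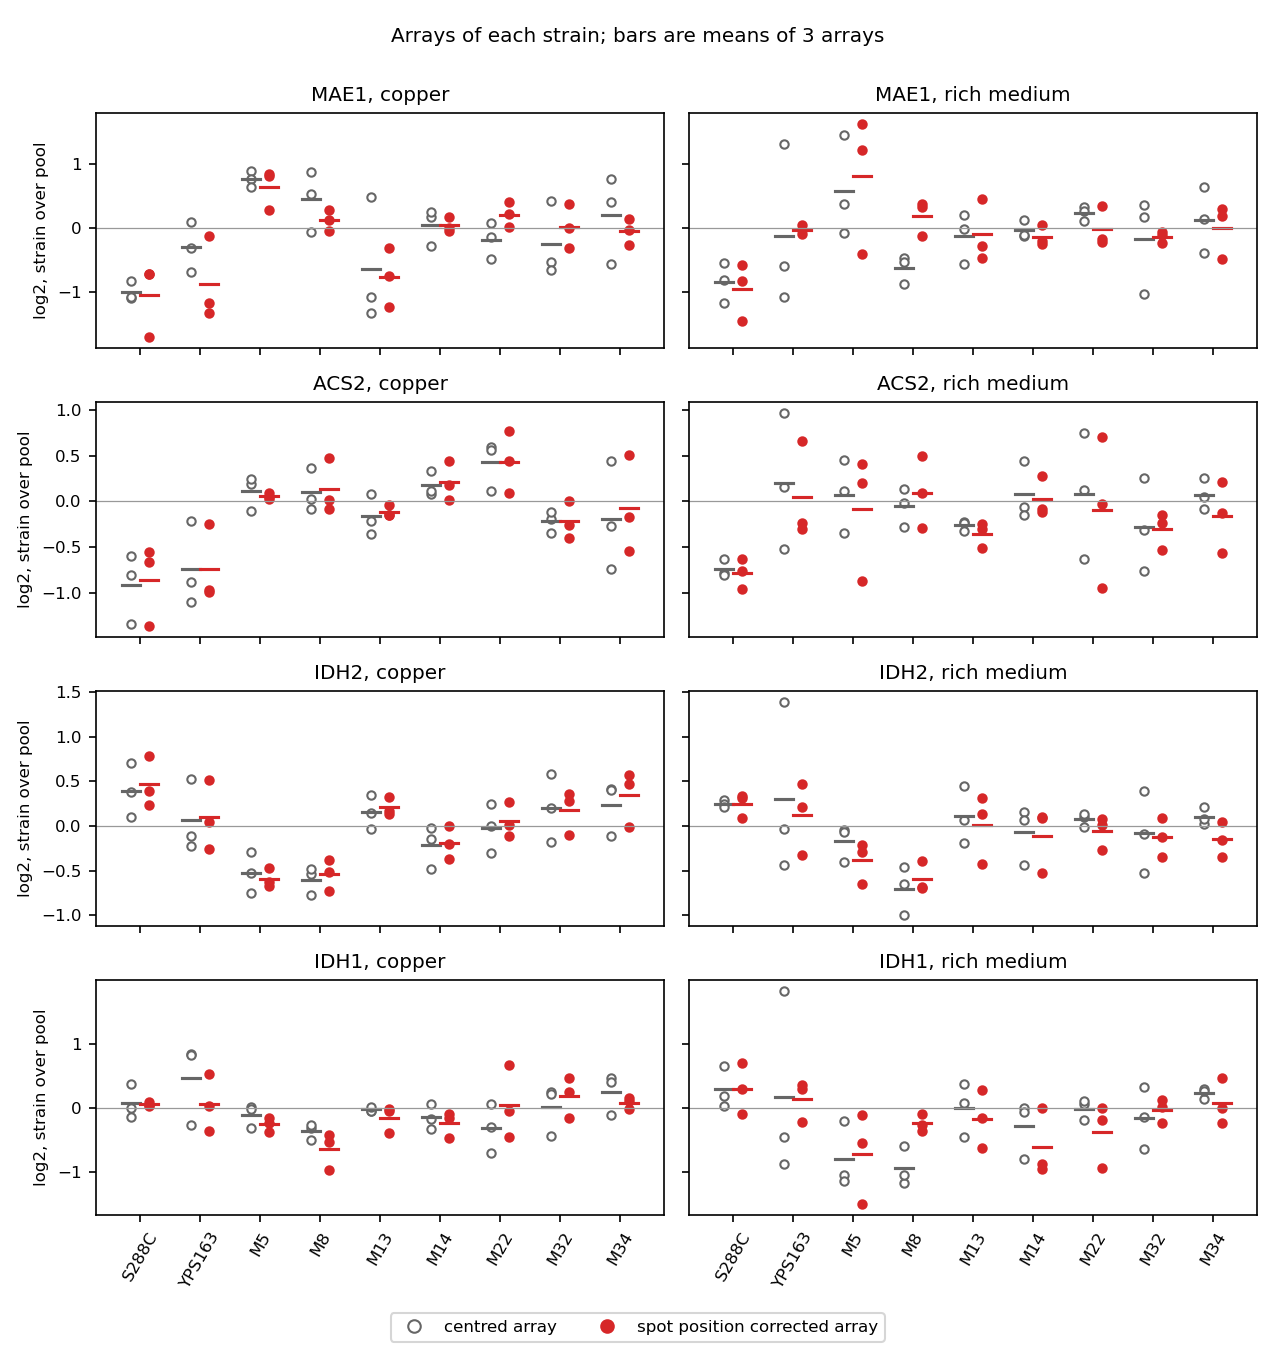
Log2 ratio of strain over pool for MAE1, ACS2, IDH2 and IDH1 on each array, by strain, in copper (left) and rich medium (right). Open grey circles are centred and filled red circles position-corrected arrays, and bars are means of 3 arrays. All S288C points of MAE1 and ACS2 lie below 0 in both media, and all M5 and M8 points of IDH2 lie below 0.

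The 11 mitochondrial cycle genes as a group had their lowest median contrast in M5 and their highest in S288C in copper, but not in rich medium. In copper, M5 had a median contrast of -0.52 with 0 of 11 genes above 0, and S288C had 0.27 with 11 of 11 above 0. In rich medium the medians were -0.22 for M5, with 0 of 11 above 0, and 0.24 for S288C, with 10 of 11. There M8 was lower than M5 at -0.57, with 4 of 11 above 0, and YPS163 was higher than S288C at 0.34, with 10 of 11. After correction M8 had -0.13 and YPS163 0.27 in rich medium. Of all genes, 44.8% were above 0 in M5 and 52.9% in S288C in copper, and 48.3% and 51.5% in rich medium. None of these genes passed by limma in either strain on centred values. After correction the medians of M5 and S288C were -0.43 and 0.25 in copper and -0.35 and 0.20 in rich medium, and 1 of 11 was above 0 in M5 in each medium. Each strain is set against a mean that holds the other, so these contrasts are not independent.

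M8 had 1 of 11 above 0 in copper with a median of -0.22 on both scales. In rich medium 7 of the 11 had an unadjusted p under 0.05 in M8, as did 37.8% of all genes. After correction it was 2 of the 11, beside 4.91% of all genes. YPS163 had a median of 0.13 in copper. CIT1 had its own order: M13 was highest in both media, at 0.64 ± 0.13 in copper and 0.59 ± 0.75 in rich medium (SD, n = 3). M5 was lowest in copper at -0.77 ± 1.02, with arrays of 0.16, -1.87 and -0.60. The corrected F-test for CIT1 in copper had an adjusted p of 0.0919 (limma), and 0.0257 without M5 replicate 1.

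The stress and post-diauxic genes had median contrasts of the same sign as the cycle genes in S288C, M5 and M8 in both media. In copper 14 of the 16 were above 0 in S288C, with a median contrast of 0.56, and 3 of 16 in each of M5 and M8, with medians of -0.44 and -0.50. HSP12 had a contrast of 2.23 in S288C and -1.41 in M5, and its S288C arrays read -0.20, 3.39 and 0.25, with replicate 2 far above the other 2. In M32 13 were above 0 with a median of 0.46, whereas the cycle genes of M32 had a median of 0.03. In rich medium the signs parted in YPS163 (cycle genes 0.34, stress genes -0.09), M32 (-0.06 and 0.20) and M14 (-0.13 and 0.04). Of this list, YGP1, a cell wall protein gene, was called higher in S288C in copper at 1.61 (limma, adjusted p 0.0164), with arrays of 0.20, 2.26 and 0.07, again highest in replicate 2. After correction SPI1, a stress-induced cell wall protein gene, was called too, at 1.02 (adjusted p 0.00521). Their part in the cycle genes' values was not tested.

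Of the 13 regulators, HAP4, the activating subunit of the Hap complex, was called lower in M5 in copper after correction, beside 0.109% of all genes. It stood at -0.90 ± 0.20 (limma, adjusted p 0.0307). Its centred value there was -1.05 (adjusted p 0.261), and the centred arrays read -1.43, -0.43 and -1.54. In S288C HAP4 also read below 0 in copper, at -0.79, -1.10 and -0.04. The part of HAP4 in the cycle genes' values was not tested. ADH2, the alcohol dehydrogenase that oxidises ethanol, was called higher in S288C in both media. Its contrast was 1.94 ± 0.32 in copper (limma, adjusted p 0.000151) and 1.81 ± 0.32 in rich medium (adjusted p 0.000281), with arrays of 3.01, 0.67 and 1.35 and of 1.41, 0.34 and 1.25. SDH2, the iron-sulfur subunit of succinate dehydrogenase, was called higher in M13 in copper after correction, at 0.87 (adjusted p 0.00874), and had 0.88 with an adjusted p of 0.262 before it. GID8, a subunit of the ligase that degrades FBP1, was called lower in M34 in copper after correction at -0.89 (adjusted p 0.0272). Of all gene and strain pairs, 0.678% were called in copper after correction. On centred values it was 0.286% in copper and 0.245% in rich medium.

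The 4 largest centred ranges in rich medium belonged to FBP1, IDP2, ICL1 and LSC2, and all 4 shrank on correction. FBP1 had a range of 1.96, IDP2 1.88 and ICL1 1.84, and the cycle gene LSC2 had 1.80. After correction they had 0.67, 0.57, 0.68 and 0.46, against a median of 0.50 over all genes. M8 was the highest strain for IDP2, ICL1 and LSC2 and the lowest for FBP1. Its arrays in rich medium read 1.03, 1.19 and 0.66 for IDP2, 0.46, 1.81 and 0.56 for ICL1 and -1.48, -1.03 and -0.89 for FBP1. After correction the same arrays read 0.17, 0.11 and 0.03 for IDP2 and -0.42, -0.22 and -0.36 for FBP1. Of the 30 members, 14 had an unadjusted p under 0.05 in M8 in rich medium on centred values, and 4 after correction. Over all genes the shares were 37.8% and 4.91%. None passed after adjustment by limma on either scale with all arrays. On centred values 13 members passed in M8 without M32 replicate 2, among 1298 of all genes, and 11 without M5 replicate 3, among 1132 of all genes.

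In copper FBP1 had a range of 1.48, between YPS163 at 0.77 ± 1.06 and M22 at -0.71 ± 0.30 (SD, n = 3), and 0.68 after correction. MLS1 had 1.17 with M14 highest at 0.84 ± 0.43, and kept 1.05 after correction (limma F-test, adjusted p 0.617). MDH2 had 1.16, with S288C highest at 0.87 ± 0.09 and M5 lowest at -0.29 ± 0.71. The cycle gene LSC2 had 1.37, between S288C at 0.61 ± 0.09 and M5 at -0.76 ± 0.45, and 1.06 after correction (adjusted p 0.217). The smallest ranges were those of FUM1 at 0.46 and MDH3 at 0.46. The 4 pyruvate dehydrogenase genes ranged from 0.50 for LPD1 to 0.81 for PDB1, with S288C the highest strain for each.

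**Figure D4:**
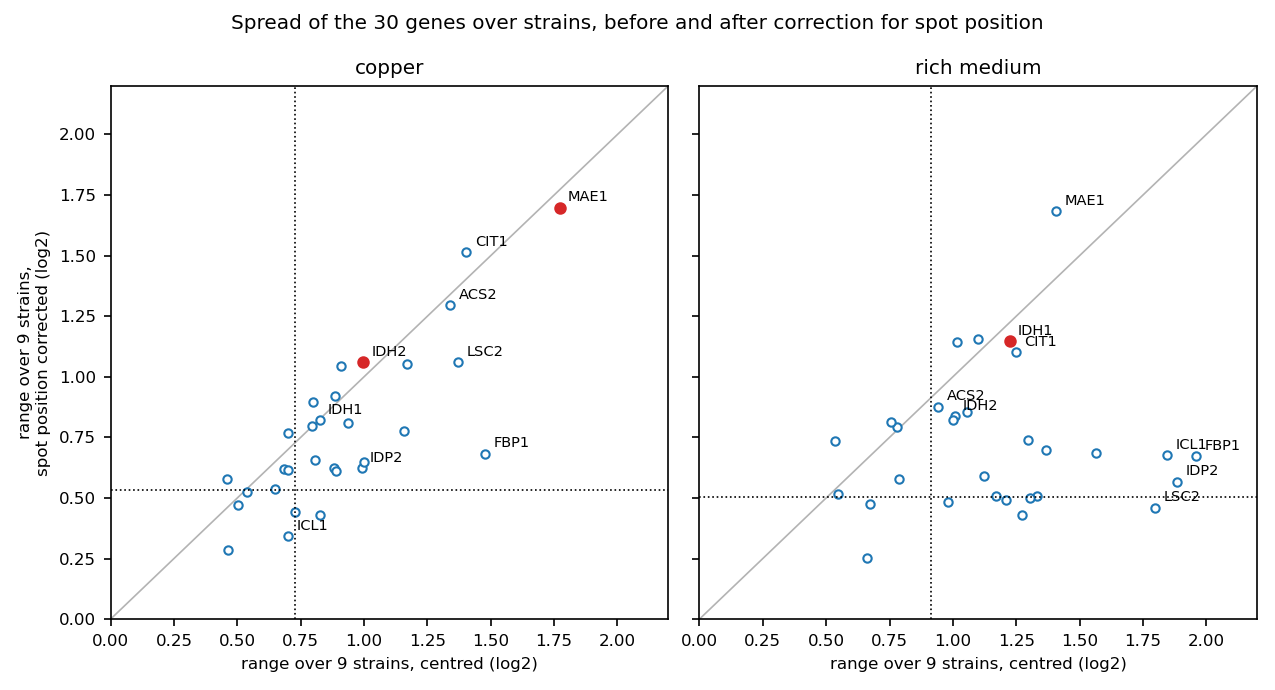
Range of the 30 genes over the 9 strain means (log2), centred on the horizontal and position-corrected on the vertical axis, in copper (left) and rich medium (right). Each circle is a gene, filled circles passed the corrected F-test, dotted lines are the medians over all genes and the grey line marks equal ranges. MAE1, IDH2 and IDH1 lie near or above the line, and FBP1, IDP2, ICL1 and LSC2 in rich medium lie far below it.

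The strain differences were not shown to depend on the medium. In the interaction test 0 of 30 members and 0% of all genes were called by limma. At an unadjusted p under 0.05 there was 1 member, ICL1 on centred values and PYC2 after correction, beside 261 and 87 of all genes. The response of each strain to copper, set against that of the other 8, gave 0 calls over 30 genes and 9 strains, with 0% of all gene and strain pairs called. At an unadjusted p under 0.05 there were 15 centred pairs, of which M8 and M22 held 6 each. Of all genes, 19.8% in M8 and 12.3% in M22 had such a p, and 2.35% and 2.7% after correction. The lowest unadjusted p among the 15 pairs was that of ACS2 in YPS163, with a relative response of -0.98 ± 0.34 and an adjusted p of 0.321 (limma). Its arrays in copper averaged -0.73 and in rich medium 0.20.

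Set singly against the other strains on centred values, no pair of the 30 members and 9 strains was called by limma in copper (0 pairs), beside 0.286% of all such pairs called. At an unadjusted p under 0.05 there were 17 pairs, where the share of all genes ran from 1.59% in M14 to 8.47% in YPS163. In rich medium 0 pairs were called, beside 0.245%, and 33 had an unadjusted p under 0.05. There the share of all genes with such a p ran from 2.17% in M13 to 37.8% in M8. Without M32 replicate 2 or M5 replicate 3, 13 and 11 pairs were called, all of them in M8. After correction 3 pairs were called in copper, MAE1 and ACS2 in S288C and IDH2 in M5, beside 0.678% of all pairs. In rich medium 1 was called, MAE1 in S288C, beside 0.424%. All 4 calls were lower values. The remaining members, among them CIT2, PYC2, ACS1, MDH3, PDA1, PDB1, LAT1 and IDP3, passed no strain test with all arrays in the fit with a channel effect, on either scale. In other fits PYC2 passed in YPS163 in copper, after correction, without S288C replicate 1, M34 replicate 1 or YPS163 replicate 2. With the replicate block and correction PYC2 passed the F-test in copper and in YPS163, and LAT1 passed in S288C in rich medium. PDA1 passed the corrected F-test in rich medium, and in S288C, without replicate 1 of every strain, where M5 rested on 1 array. IDP3 passed in M8 in rich medium without M5 replicate 3. ACS1 passed in M8 in rich medium on centred values without M32 replicate 2 or M5 replicate 3. The response of YPS163 gave calls for IDH1, IDP3 and PYC1 on centred values without replicate 2 of every strain.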

How the data were processed

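The deposited table holds log2 ratios of 6144 rows on 60 arrays with 0 missing values. That the values are log2 was read from the values: turned back, all ratios under 10 lay within 0.00001 of a number with 3 decimals. Per the labels, RNA was labelled with Cy3 or Cy5 and read with a GenePix scanner, and bad spots were marked. Any normalization by the authors is not given in the sources used here. Platform names gave 5541 rows with 1 gene, 0 with several and 603 with none. The rows of 17 genes were averaged, which left 5524 genes.

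Each array was centred on its median and turned by the channel order of the labels. Deposited medians ran from -0.77 to 1.16. limma 3.58.1 in R 4.3.3 was fitted over all genes, with 1 channel effect per gene, to the 6 pool arrays and, as 18 group means, to the 54 strain arrays. Moderated tests were adjusted by Benjamini-Hochberg at 0.05, within each strain for single strains. Position-corrected values are those after subtraction of a running median of 15 by 15 spots, in a layout of 16 blocks of 384 rows (16 by 24 spots) that was inferred from row numbers. The script was tested on simulated data with 200 changed genes. Python 3.11.15, NumPy 2.4.6, pandas 2.3.3 and matplotlib 3.10.9 were used for preparation and figures.

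The members and lists were chosen with earlier results of these data known, and the lists are the 6 groups by role, other TCA cycle genes, other pyruvate entry genes, other glyoxylate, acetate and gluconeogenesis genes, mitochondrial carriers, regulators, and growth state markers (stress and post-diauxic genes). Per-array values are given for members past a threshold, for the 2 highest and 2 lowest in the pools and the 4 largest ranges. Exceptions are LSC2 in both media and FBP1 in copper, for which only ranges or means are given. Listed genes are named where they passed or were extreme in their list. Other per-array values, as for IDH1, ICL1 and PYC2, were chosen after values were seen. The number of arrays limits the precision. No depth is defined, and signal over background was not used here. Fewer cells in a state and less RNA per cell cannot be told apart. Alternatives were no centring, equal spread, no channel effect, robust empirical Bayes, 16 block medians, single rows, a replicate block, arrays of 1 medium, adjustment over all strains together, and left-out arrays. Left-out arrays and the replicate block on position-corrected values were added after seeing the data.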

Additional observations from a re-analysis of the deposited data

Results flagged for a closer look

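In the pool arrays 2 of the 30 members had 1 array far from the other 5, by Dixon's test for outliers, which flags about 1 in 20 groups by chance. MDH3 read -0.67 on pool array 3, and its nearest other array read 0.01. FBP1 read 0.99 on pool array 4, and its nearest other array read 0.03.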

How the results depend on the processing

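The pool count of 1 became 4 without centring (CIT1, IDH2, MDH1 and PYC1) and 0 with arrays scaled to equal spread, position-corrected, centred within 16 blocks or without a channel effect. It was 0 to 1 with single arrays left out, and 0 to 2 when also position-corrected. The F-test in copper, at 0, gave 3 with equal spread, 2 position-corrected, 2 within 16 blocks and 1 with only the arrays of that medium, and in rich medium, at 0, it gave 1 position-corrected and 1 within 16 blocks. Single strains in copper, at 0, gave 2 without centring, 2 with equal spread, 3 position-corrected, 1 within 16 blocks and 2 with only that medium, and in rich medium, at 0, 1 position-corrected and 2 within 16 blocks. With the replicate block in place of the channel effect, single strains in copper gave 1 call, ACS2 in S288C, and no other count moved on centred values. With both position correction and the replicate block, the F-tests gave 4 in copper and 1 in rich medium (MAE1 in place of IDH1), and single strains 5 and 3.

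With arrays left out, centred counts ran from 0 to 0 for the F-test in copper, 0 to 1 in rich medium, 0 to 1 for single strains in copper and 0 to 13 in rich medium. The 13, all in M8, came without M32 rich replicate 2, and single-strain responses ran from 0 to 3. Position-corrected, these ran from 0 to 3, 0 to 1, 0 to 5, 0 to 3 and 0 to 0. The interaction stayed at 0 in every fit run. IDH2 in S288C in copper reversed to -0.011 without centring, where the median of all genes in S288C moved to -0.48, and ACS2 in the pools reversed to 0.0048. Where arrays or genes were not left out, the cause was not tested.

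The labels do not say that replicate numbers pair the samples, but arrays with the same number moved together. Same-numbered arrays of different strains correlated from -0.36 to 0.65 in copper and -0.63 to 0.80 in rich medium. In copper 23 of 27 arrays correlated best with their own number, and in rich medium 20. Position-corrected, the correlations ran from -0.02 to 0.65 and from -0.21 to 0.64, with 97 and 88 of 108 pairs over 0.1, and 26 and 25 of 27 arrays correlated best with their own number, a hint from the data that the labels do not explain.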
